A study of Mus musculus with 10 samples.

Results

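The Hox genes of lumbar motor neurons are described here from 10 mouse libraries. The members are all protein-coding genes of the 4 Hox clusters, chosen by symbol as Hoxa, Hoxb, Hoxc or Hoxd followed by a paralog number. This gave 39 genes of 51912 in the count files. Motor neurons were cut by laser from frozen lumbar spinal cord sections of 5 HSA-NRTN transgenic mice and of 5 wild-type littermates. Each group held 3 females and 2 males, and the cells of each mouse were pooled into 1 polyA library. HSA-NRTN mice carry a transgene for neurturin, a growth factor that the series title describes as secreted by muscle, and HSA is the usual name of the human skeletal actin promoter, which is active in muscle fibres. Age, strain background and the lumbar segment of the sections are not given in the labels, and replicate numbers below follow the order of the records.

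Hox genes encode homeodomain transcription factors and lie in 4 clusters that arose by duplication, so that genes with the same number in different clusters are paralogs. Low-numbered genes lie at the 3′ end of each cluster and are used from the hindbrain backwards, whereas higher-numbered genes at the 5′ end are used in progressively more caudal segments. In the spinal cord, paralogs 4 to 8 are associated with brachial levels, Hoxc9 and other paralog 9 genes with thoracic levels, and Hoxc10, Hoxd10 and the paralog 11 genes with lumbar levels, where they help set limb-innervating motor columns and pools. Their proteins bind DNA with cofactors of the Pbx, Meis and Pknox families, and Polycomb and Trithorax complexes keep the clusters silent or active.

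Each library held 1875971 to 6641695 gene counts and 14090 to 19675 genes with a count. The summed level of 6 motor neuron markers (Chat, Slc18a3, Slc5a7, Isl1, Mnx1 and Prph) was 2139 to 4183 CPM (counts per 1000000, on library sizes scaled by the TMM method), and no motor neuron marker was at 0 in all libraries. By genotype the sum was 2817 to 4183 CPM in HSA-NRTN and 2139 to 3597 CPM in wild-type libraries. Of the 6 markers, 5 had a higher fitted level in HSA-NRTN mice and 1 a lower one, and 0 had an edgeR adjusted p under 0.05. Markers of glia were also present. Of 6 astrocyte and 6 oligodendrocyte markers, all had counts, and their sums were highest in HSA-NRTN replicate 2, at 748 and 1429 CPM, and next in wild-type replicate 1, at 295 and 660 CPM. Marker sums of neighbouring neurons ranged from 0.688 to 172 CPM for 4 inhibitory and from 1.13 to 299.7 CPM for 4 excitatory interneuron genes, and those of 6 microglial and 5 endothelial genes stayed at or under 12.2 and 23.8 CPM. The neurturin gene Nrtn, the growth factor of the transgene, had 1 to 6 counts in the HSA-NRTN libraries and 0 to 7 in wild-type ones, and a muscle promoter gives these cells no check of the genotype labels.

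Hox genes were counted in every library. Together they held 894 to 2774 counts per library, or 329 to 637 CPM. Of the 39 genes, 33 had a count in at least 1 library, 13 had a count in all 10, and 17 had at least 10 counts in at least 5 libraries. The 6 with no count were Hoxa13, Hoxb1, Hoxc12, Hoxd1, Hoxd12 and Hoxd13, which lie at or near the ends of their clusters. A count of 0 in 1 library allows a level of up to 0.428 to 1.62 CPM, taking 3 counts as the limit, and this limit covers counting error only.

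**Figure D1:**
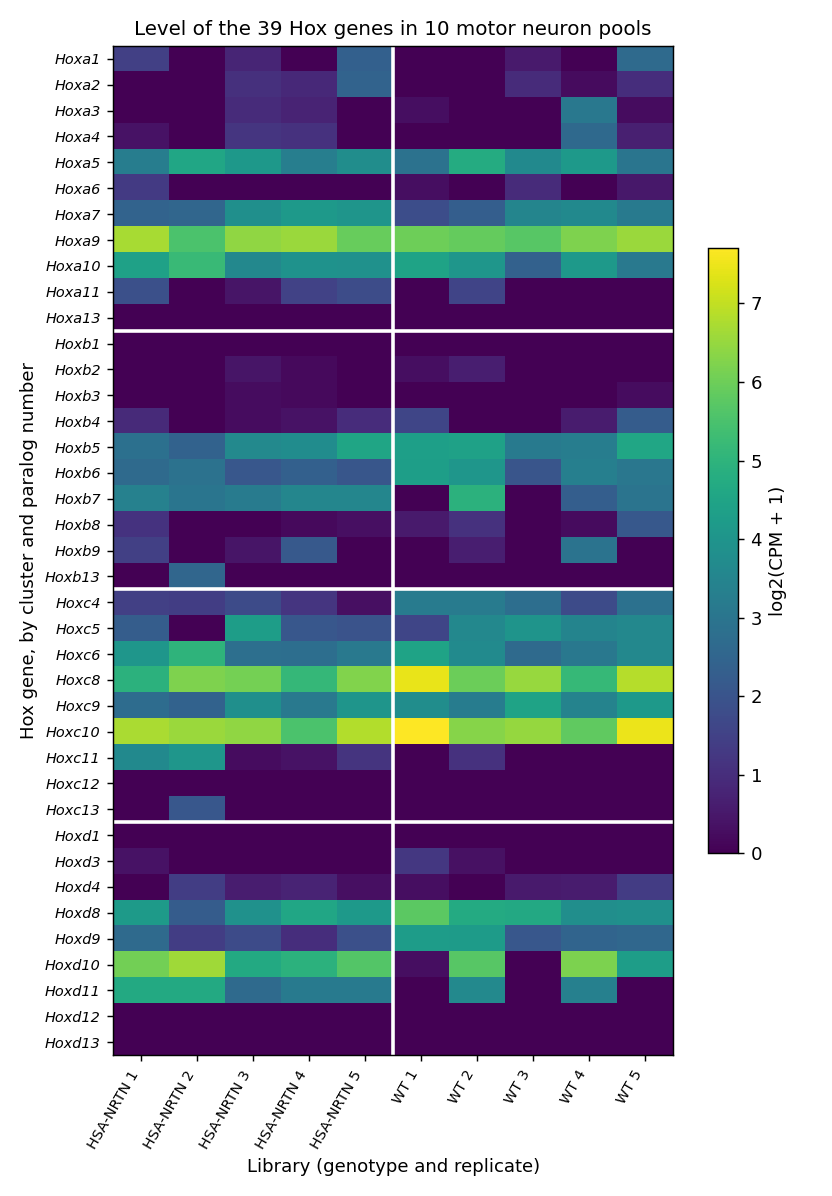
Level of each of the 39 Hox genes (rows, by cluster and paralog number) in each of the 10 libraries (columns), as log2(CPM + 1) on a colour scale. Hoxa9, Hoxc8 and Hoxc10 are bright in every library, the paralog 1 to 3, 12 and 13 rows are dark or empty, and Hoxd10 is dark in wild-type replicates 1 and 3 alone.

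The HoxC cluster gave the most counts. HoxC (chr15:102921103-103036852, plus strand, GRCm38) had 9487 counts over its 9 genes, a median of 47.5% of the Hox counts of a library. HoxA (chr6:52155590-52260880, minus strand) had 5317 counts over 11 genes, HoxD (chr2:74668310-74765142, plus strand) 3215 over 9, and HoxB (chr11:96194316-96368256, plus strand) 1483 over 10. The share of HoxC ranged from 29.6% to 67.2% between libraries and that of HoxD from 7.08% to 26.5%.

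Levels were concentrated at paralogs 8 to 10. Levels between genes were compared as CPM per kilobase of exon. By this measure the paralog 10 genes summed to 82.4 ± 26.0 (SD, n = 10), paralog 8 to 34.5 ± 19.2, paralog 9 to 21.1 ± 4.36 and paralog 5 to 14.7 ± 4.64. Paralogs 6 and 7 came to 9.38 ± 5.22 and 8.78 ± 5.52, paralog 11 to 4.08 ± 5.05 and paralog 4 to 2.57 ± 1.53. Paralogs 1, 2, 3 and 13 each came to at most 0.557, and paralog 12 was at 0. Paralogs 12 and 13, near absent here, are used in sacral and tail segments.

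**Figure D2:**
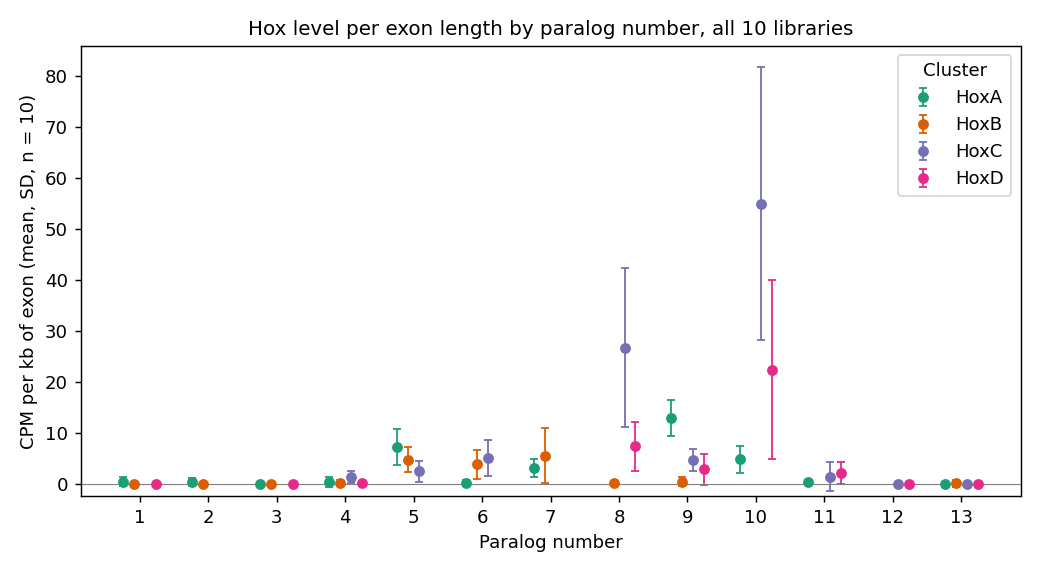
Level per exon length (CPM per kilobase, linear axis) of each Hox gene against its paralog number, coloured by cluster, as the mean and SD of 10 libraries. Hoxc10 is highest at 55.0, followed by Hoxc8 at 26.8 and Hoxd10 at 22.5, and paralogs 1 to 3, 12 and 13 lie close to 0.

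Among single genes Hoxc10 was highest, at 55.0 ± 26.7 CPM per kilobase (SD, n = 10), and it was above Hoxc8 (26.8 ± 15.6) in 10 of 10 libraries. Hoxc8 and Hoxd10 (22.5 ± 17.5) did not differ beyond their spread, with Hoxc8 above in 4 of 10 libraries. Hoxa9 came next at 12.98 ± 3.56, within 1 SD of Hoxd10, which was above it in 5 of 10 libraries. Hoxa9 was above Hoxd8 (7.43 ± 4.85) in 9 of 10 libraries. From Hoxd8 down, through Hoxa5, Hoxb7, Hoxc6, Hoxa10, Hoxb5, Hoxc9, Hoxb6, Hoxa7, Hoxd9, Hoxc5, Hoxd11 and Hoxc4 at 1.496 ± 1.17, each neighbour in the order was within 1 SD of the next. Exons of 16 Hox genes overlap those of another gene, Hoxc10 with Hoxc5 and Hoxd10 and Hoxd11 with Gm28309 among them. The kit does not mark strand, so the levels of such genes are uncertain.

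The lumbar genes of paralog group 10 differed in how evenly they were present. Hoxc10, which with its paralogs specifies lumbar identity, had 106, 93.5, 84.4, 45.0 and 113 CPM in HSA-NRTN replicates 1 to 5 and 208, 78.4, 89.1, 55.8 and 177 CPM in wild-type replicates 1 to 5. The lowest library was thus at 45.0 CPM, and the groups overlapped, with wild-type replicates 1 and 5 above all others. Hoxa10, the HoxA paralog, had 20.2, 36.2, 11.2, 14.3 and 14.1 CPM in HSA-NRTN and 21.1, 15.6, 4.22, 16.5 and 7.73 CPM in wild-type mice. It was lower than Hoxc10 in every library and highest in HSA-NRTN replicate 2.

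Hoxd10, needed for normal lumbar motor neuron position and peripheral projections in mice, was high in 8 libraries and nearly absent from 2. It had 223, 178, 134, 210 and 197 counts in HSA-NRTN replicates 1 to 5, and 1, 182, 0, 422 and 93 counts in wild-type replicates 1 to 5. On the CPM scale these were 66.1, 96.2, 24.5, 29.9 and 48.6 against 0.230, 51.5, 0, 72.6 and 18.4. Wild-type replicates 1 and 3 lay apart from the other 8 libraries, whose lowest value was 18.4 CPM, while wild-type replicates 2, 4 and 5 fell inside or just below the HSA-NRTN range. Both libraries were from females, as were wild-type replicate 4 and HSA-NRTN replicates 3 to 5, in which Hoxd10 was present.

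Within the paralog 10 genes the make-up shifted accordingly. Hoxd10 made 20.4% to 42.6% of the Hoxa10, Hoxc10 and Hoxd10 counts in the HSA-NRTN libraries. In wild-type replicates 1 to 5 it made 0.100%, 35.4%, 0%, 50.1% and 9.08%. Hoxc10 had 907 counts in wild-type replicate 1 and 380 in replicate 3, so the near absence of Hoxd10 there was not shared by its HoxC paralog.

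Hoxd11, the next gene towards the 5′ end of the cluster, was absent from the same libraries and from 1 more. It had 84, 46, 29, 57 and 33 counts in HSA-NRTN replicates 1 to 5 and 0, 40, 0, 54 and 0 counts in wild-type replicates 1 to 5. In CPM these were 24.9, 24.9, 5.31, 8.12 and 8.14 against 0, 11.3, 0, 9.29 and 0. All 5 HSA-NRTN libraries had counts, and 3 of 5 wild-type libraries had none, while the wild-type libraries with counts lay inside the HSA-NRTN range.

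Hoxd9 and Hoxd8, on the 3′ side of Hoxd10, were present in wild-type replicates 1 and 3. Hoxd9 is separated from Hoxd10 by 2621 bases and Hoxd10 from Hoxd11 by 4907. Hoxd9 had 5.34, 1.62, 2.38, 0.998 and 2.71 CPM in HSA-NRTN and 18.4, 17.8, 3.28, 4.65 and 4.96 CPM in wild-type mice. Its highest value was thus in wild-type replicate 1, where Hoxd10 had 1 count. Hoxd8 had 17.5, 3.78, 13.9, 22.5 and 16.8 CPM in HSA-NRTN and 53.7, 25.2, 24.2, 12.9 and 13.5 CPM in wild-type mice, and was also highest in wild-type replicate 1.

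The start regions of these 3 neighbours are shown because the count pattern changed between Hoxd9 and Hoxd10. Each window is 300 bases, from 250 before to 50 after the start in RefSeq, on GRCm38.p6. RefSeq entries were matched for 22 of the 39 Hox symbols, with 24 windows. Capitals mark CACGTG, the E-box bound by basic helix-loop-helix proteins, and CCAAT or its reverse complement ATTGG.
Hoxd10, chr2:74691641-74691940, plus strand: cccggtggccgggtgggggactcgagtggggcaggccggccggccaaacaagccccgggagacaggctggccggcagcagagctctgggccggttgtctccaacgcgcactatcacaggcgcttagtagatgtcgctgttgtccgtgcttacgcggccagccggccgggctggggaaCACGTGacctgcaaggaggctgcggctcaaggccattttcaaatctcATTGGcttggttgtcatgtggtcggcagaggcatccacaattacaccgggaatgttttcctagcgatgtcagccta
Hoxd11, chr2:74682073-74682372, plus strand: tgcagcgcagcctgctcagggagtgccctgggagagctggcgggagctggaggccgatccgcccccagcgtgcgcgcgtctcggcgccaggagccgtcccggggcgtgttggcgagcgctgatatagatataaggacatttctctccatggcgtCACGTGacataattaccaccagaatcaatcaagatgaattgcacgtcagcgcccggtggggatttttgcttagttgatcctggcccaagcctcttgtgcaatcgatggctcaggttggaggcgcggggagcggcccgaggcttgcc
Hoxd9, chr2:74697513-74697812, plus strand: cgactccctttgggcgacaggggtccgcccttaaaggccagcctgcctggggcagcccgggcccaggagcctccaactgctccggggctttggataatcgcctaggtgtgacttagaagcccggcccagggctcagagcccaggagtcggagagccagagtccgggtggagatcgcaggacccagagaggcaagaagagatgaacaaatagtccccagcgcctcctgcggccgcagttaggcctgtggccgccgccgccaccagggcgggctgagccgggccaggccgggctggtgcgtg

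CACGTG lay in the Hoxd10 window and in this Hoxd11 window, whereas a Hoxd11 window at chr2:74679308-74679607 and the Hoxd9 window had none. The motifs were searched after these sequences had been read, and a match is a description only. Searched on both strands, CACGTG lay in 5 of the 24 Hox windows, at Hoxd1, Hoxd4, Hoxd10, Hoxd11 and Hoxd13, and in 7.15% of 32851 promoter windows of the same length. Hoxd1 and Hoxd13, which share it, had no counts. CCAAT lay in 15 of the 24 and in 37.4% of all, TTTATG, a core of caudal-type homeodomain sites, in 5 and 11.9%, and TAATTA, a homeodomain core, in 2 and 5.29%. Both TAATTA matches were in the Hoxd11 windows.

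Near absence from whole libraries was uncommon among genes of this level. Of 4522 genes with a median of at least 150 counts over the 10 libraries, 2 had at most 1 count in 2 or more libraries. They were Hoxd10 and Xist, the RNA of the inactive X chromosome, which is silent in males. Among 9071 genes with a median of at least 30 counts, 81 (0.893%) had such libraries, and 3 of the 14 Hox genes at that level did, namely Hoxb7, Hoxd10 and Hoxd11. These limits were chosen after the values had been seen. Wild-type replicates 1 and 3 held 4935435 and 4071678 gene counts, within the range of the others. Replicate 1 stood apart in other ways, with the fewest genes counted (14090) and the highest spike-in (4.86%) and mitochondrial (12.9%) shares of the 10 libraries. In replicate 3 these were 17492 genes, 0.992% and 4.99%. Their astrocyte sums were 295 and 50.7 CPM, their oligodendrocyte sums 660 and 233 CPM, and their motor neuron sums 3118 and 2139 CPM. The sums of 4 fibroblast genes (Col1a1, Col1a2, Dcn and Lum) consisted mostly of Dcn. Its mean over the 10 libraries was 82.3 CPM, beside 2.21 for Lum, 1.77 for Col1a2 and 0.043 for Col1a1. Within the wild-type group the sums were 296 and 352 CPM in replicates 2 and 4, which had the highest Hoxd10 and the only Hoxd11 counts. In replicates 1, 3 and 5 they were 11.02, 31.4 and 26.6 CPM. Hoxd10 was at 0.230, 0 and 18.4 CPM there and did not follow the order of the sums. In the HSA-NRTN libraries, all with Hoxd10 and Hoxd11, the fibroblast sums were 0.986 to 56.9 CPM. The part of cell make-up or library quality in the result was not tested. The lumbar segment cut from each mouse is not in the labels, so its part cannot be told apart from other differences between animals. In pools of cells, fewer cells of a type and less RNA per cell cannot be told apart either.

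The same 2 libraries also lacked Hoxb7, a brachial and thoracic gene of another chromosome. Hoxb7 had 32, 13, 45, 74 and 43 counts in HSA-NRTN replicates 1 to 5 and 0, 105, 0, 23 and 34 counts in wild-type replicates 1 to 5. Its CPM values were 9.49, 7.03, 8.24, 10.55 and 10.6 against 0, 29.7, 0, 3.96 and 6.74. The HSA-NRTN libraries lay close together, with a mean of 9.18 ± 1.54 CPM (SD, n = 5), and all fell inside the wild-type range. Only 3 genes in the count files had at most 1 count in wild-type replicates 1 and 3 and at least 10 in each of the other 8. They were Hoxb7, Hoxd10 and Lrrc3b, which encodes a leucine-rich repeat membrane protein and had 20 to 79 counts in the other libraries. This pattern was also chosen after the values had been seen.

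**Figure D3:**
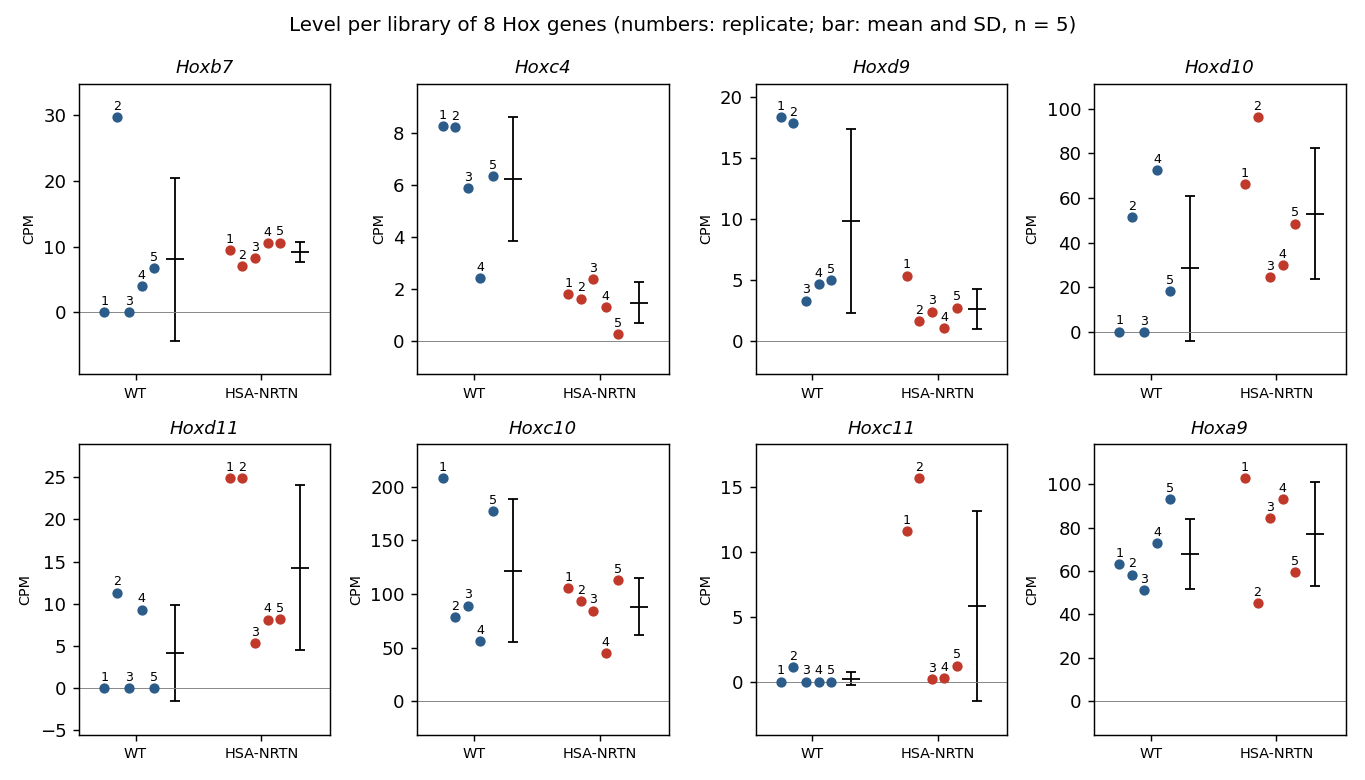
Level in CPM (linear axes) of 8 Hox genes in each library, by genotype, with replicate numbers beside the points and the mean and SD of 5 libraries as bars. Hoxb7 and Hoxd10 lie at or near 0 in wild-type replicates 1 and 3, Hoxd11 is at 0 in wild-type replicates 1, 3 and 5, and Hoxa9 and Hoxc10 are well above 0 in all libraries.

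Hoxa9, the most even of the Hox genes at a coefficient of variation of 27.4%, had 103, 45.4, 84.3, 93.1 and 59.4 CPM in HSA-NRTN and 63.3, 58.3, 51.4, 72.8 and 93.2 CPM in wild-type mice. The groups overlapped throughout. Hoxc9, which restricts limb-innervating motor columns to levels outside the thorax, had 5.63, 4.32, 13.4, 7.70 and 15.3 CPM in HSA-NRTN and 12.6, 8.50, 21.3, 9.81 and 16.9 CPM in wild-type mice. Per kilobase it was lower than Hoxc10 by more than the SD of either, at 4.75 ± 2.20 (SD, n = 10). Hoxb9 had 73 counts in all, in 5 libraries.

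Hoxc8, which patterns motor pools of the posterior brachial cord, had 30.0, 73.5, 68.1, 34.1 and 75.7 CPM in HSA-NRTN and 175, 61.7, 90.1, 34.8 and 115 CPM in wild-type mice. Wild-type replicate 1 was highest, as for Hoxc10, Hoxd8 and Hoxd9. Hoxb8, by contrast, had 30 counts in all 10 libraries together, with 17 of them in wild-type replicate 5.

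Genes of paralogs 4 to 7, which act at hindbrain to thoracic levels, were also counted in these lumbar cells. Hoxa5 had 8.60, 22.7, 16.3, 8.84 and 12.8 CPM in HSA-NRTN and 6.43, 25.8, 11.7, 16.7 and 6.94 CPM in wild-type mice. Hoxb5 had 6.23, 4.32, 11.4, 12.4 and 22.2 CPM in HSA-NRTN and 19.5, 20.1, 7.98, 8.61 and 22.4 CPM in wild-type mice. Hoxb5 and Hoxa5, of which Hoxa5 acts with Hoxc5 in respiratory motor neurons of the neck, were thus present in every library with overlapping groups. Hoxc5 had 3.86, 0, 18.5, 3.28 and 2.96 CPM in HSA-NRTN and 2.07, 11.04, 15.01, 10.2 and 11.1 CPM in wild-type mice, and it shares exon sequence with Hoxc10 in the annotation.

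Hoxc6, which marks the forelimb level, had 15.7, 31.3, 6.04, 5.84 and 7.64 CPM in HSA-NRTN and 21.1, 11.9, 5.40, 7.57 and 11.1 CPM in wild-type mice. Hoxb6 had 5.34, 6.49, 3.30, 4.13 and 3.21 CPM in HSA-NRTN and 19.0, 15.6, 3.05, 9.12 and 7.34 CPM in wild-type mice. Hoxa7 had 4.45, 4.86, 13.4, 17.1 and 15.3 CPM in HSA-NRTN and 2.52, 3.96, 10.3, 11.5 and 8.13 CPM in wild-type mice. The groups overlapped for each of the 3 genes. Hoxc6 was highest, within each genotype, in the library with the most glial marker RNA, namely wild-type replicate 1 and HSA-NRTN replicate 2. The part of that RNA in the Hoxc6 level was not tested.

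Hoxc4 was the member whose groups did not overlap. It had 1.78, 1.62, 2.38, 1.28 and 0.247 CPM in HSA-NRTN and 8.26, 8.21, 5.86, 2.41 and 6.35 CPM in wild-type mice. The highest HSA-NRTN library and the lowest wild-type library were at 2.38 and 2.41 CPM, and with unscaled library sizes they were at 2.52 and 2.32 and overlapped. Of the 17 Hox genes tested, 1 had groups that did not overlap, and among all 11630 genes tested 1.25% did, with 0.602% lower in HSA-NRTN.

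The 16 members with fewer counts included the most caudal ones. Hoxc11, a gene of lumbar and sacral levels, had 39, 29, 1, 2 and 5 counts in HSA-NRTN replicates 1 to 5 and 0, 4, 0, 0 and 0 counts in wild-type replicates 1 to 5. All 5 HSA-NRTN libraries thus had a count and 1 of 5 wild-type libraries did. Most of the 76 counts lay in 2 HSA-NRTN libraries, both from males. With no filter on low counts, edgeR gave Hoxc11 a log2 fold change of 4.54 ± 1.605 (SE) and an adjusted p of 0.294. In the authors' deposited table its adjusted p was 0.0804. Hoxa11 had 9, 0, 2, 13 and 10 counts in HSA-NRTN and 0, 7, 0, 0 and 0 counts in wild-type mice, and its adjusted p with no filter was 0.668.

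Hoxb13 with 9 counts and Hoxc13 with 6 were found in HSA-NRTN replicate 2 alone. That library had the lowest depth and the highest glial marker sums, and their part in these counts was not tested. The other low members, all of paralogs 1 to 4, 6, 8 or 9, had 3 to 73 counts in all. For Hoxa3, 44 of 56 counts were in wild-type replicate 4 alone.

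By blocks of paralog number, the mean summed level was 182 ± 69.8 CPM (SD, n = 5) in HSA-NRTN and 168 ± 52.1 CPM in wild-type mice for paralogs 10 and 11. For paralogs 8 and 9 it was 161 ± 20.01 against 215 ± 71.8 CPM, and for paralogs 4 to 7 it was 72.3 ± 10.1 against 86.2 ± 24.4 CPM. Paralogs 1 to 3 gave 3.17 ± 3.27 against 3.72 ± 3.26 CPM, and without HSA-NRTN replicate 5 the first of these was 1.81 CPM. In each of these blocks the ranges of the genotypes overlapped, and the difference of the means was smaller than the larger of the SDs. Paralogs 10 and 11 made 30.3% to 55.1% of the Hox counts in HSA-NRTN and 27.0% to 40.6% in wild-type libraries.

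**Figure D4:**
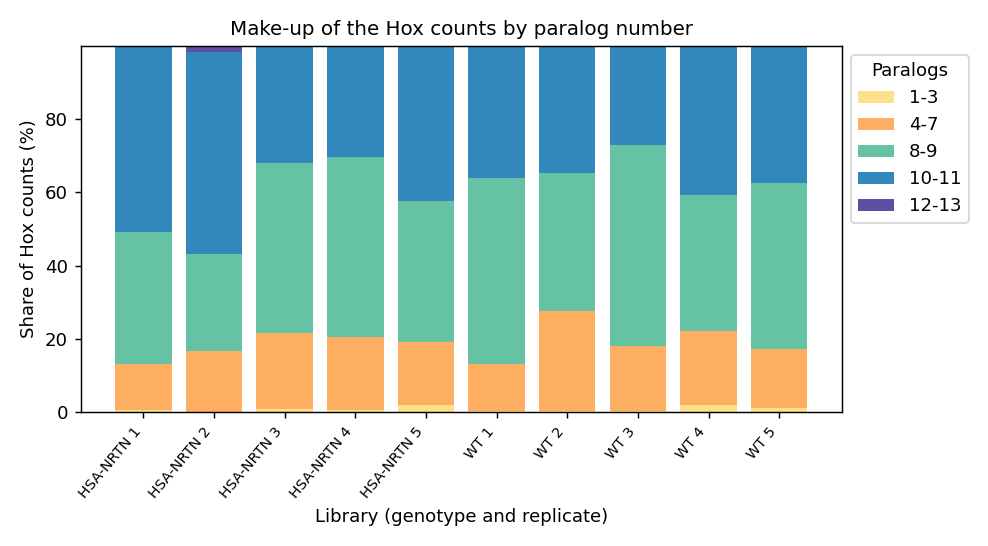
Share of each library's Hox counts (%) by block of paralog number, stacked to the whole, for the 10 libraries. Paralogs 8 and 9 together with 10 and 11 make most of the counts in every library, and HSA-NRTN replicates 1 and 2 have the largest shares of paralogs 10 and 11.

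No Hox gene passed the test between the genotypes. With edgeR's quasi-likelihood test on counts and Benjamini-Hochberg adjustment over all 11630 genes tested, 0 of 17 Hox genes had an adjusted p under 0.05, against 0.0086% of all genes, or 1 gene. At an unadjusted p under 0.05 there were 2 of 17, against 4.83% of all genes. Both had lower estimates in HSA-NRTN mice, a direction in which 2.42% of all genes lay. DESeq2 also called 0 of 17, against 0.499% of all genes. The smallest adjusted p of a Hox gene was 0.890, and the median SE of the Hox genes was 0.60 on the log2 scale, beside 0.47 over all genes tested.

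The 2 genes by edgeR were Hoxc4 and Hoxd9, and the pair depended on the tool. With limma voom the unadjusted p was 0.055 for Hoxd9, and 0.035, 0.026 and 0.012 for Hoxb7, Hoxd10 and Hoxd11. The smallest limma voom adjusted p of these genes was 0.754. The share of all genes with an unadjusted p under 0.05 by limma voom is not given here, and the 4.83% above is that of edgeR. Hoxc4, named above for its separate groups, had a mean of 1.46 ± 0.787 CPM (SD, n = 5) in HSA-NRTN and 6.22 ± 2.39 CPM in wild-type mice. The fitted difference was -2.07 ± 0.77 (SE) on the log2 scale. Its edgeR adjusted p was 0.890, and in the authors' deposited table its adjusted p was 0.265. Hoxd9 had 2.61 ± 1.66 CPM in HSA-NRTN and 9.82 ± 7.59 CPM in wild-type mice. The fitted difference was -1.90 ± 0.76 (SE) on the log2 scale. Its edgeR adjusted p was 0.921, and in the authors' deposited table it was 0.287.

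Of the 17 genes, 8 estimates were above 0 and 9 below 0 for the log2 fold change of HSA-NRTN over wild-type, with a median of -0.46 beside -0.015 over all genes tested. The median size regardless of sign was 0.60, beside 0.30 over all genes tested. By cluster, the estimate was positive for 4 of 4 HoxA genes, 1 of 3 HoxB genes, 1 of 6 HoxC genes and 2 of 4 HoxD genes. The HoxA count includes Hoxa5 at 0.030, which turned negative without HSA-NRTN replicate 2 (-0.21). The positive HoxC gene was Hoxc6, whose estimate of 0.20 ± 0.60 (SE) became -0.38 without that library.

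Hoxd10 had wide groups. Its mean was 53.1 ± 29.2 CPM in HSA-NRTN and 28.6 ± 32.4 CPM in wild-type mice (SD, n = 5), with a log2 fold change of 0.88 ± 0.96 (SE) and an edgeR adjusted p of 0.999. With wild-type replicate 1 and HSA-NRTN replicate 2, the libraries richest in glial RNA, both left out it was 0.24, and limma voom gave 2.91. For Hoxd11 the log2 fold change was 1.78 ± 1.18 (SE), with 1.17 without those libraries and 3.85 by limma voom. In the authors' deposited table neither gene had a p-value.

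**Figure D5:**
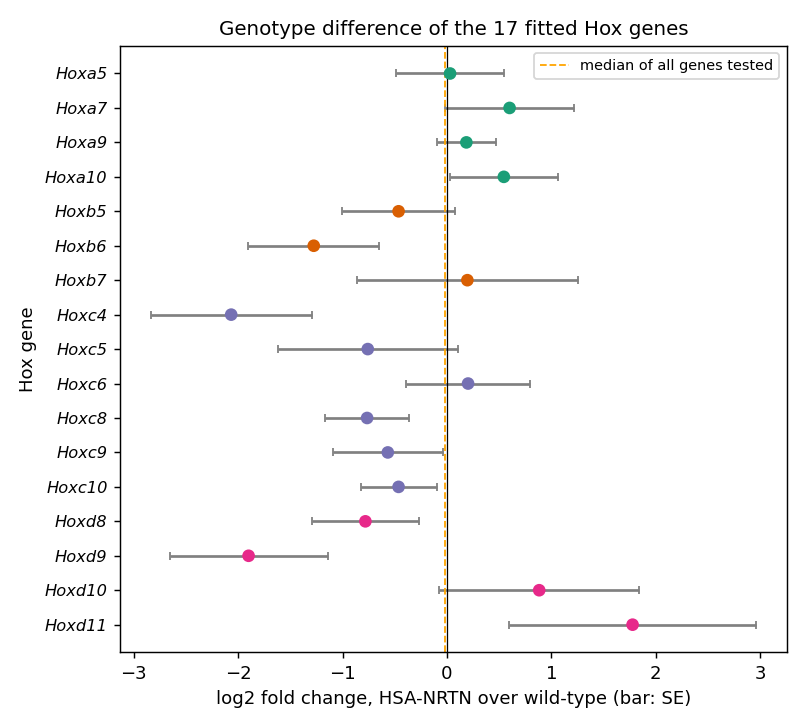
Log2 fold change of HSA-NRTN over wild-type for each of the 17 Hox genes tested (points coloured by cluster, bars: SE), with the median of all genes tested as a dashed line. The SE bars of 8 of the 17 genes reach or cross 0, and Hoxc4 at -2.07 and Hoxd9 at -1.90 lie farthest below it.

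Between the sexes, with genotype in the model, edgeR called 0 of 17 Hox genes, against 0.0086% of all genes, and 0 of 17 had an unadjusted p under 0.05, against 11.2% of all genes. DESeq2 called 0 of 17, against 0.903% of all genes, with genes that got no p-value counted as not called. Hoxd10 and Hoxd11 were among those without a DESeq2 p-value for sex. The genotype-by-sex interaction called 0 of 17, with 0% of all genes called, and 1 of 17 had an unadjusted p under 0.05, against 5.14% of all genes. That gene was Hoxb5, with an interaction of -2.34 ± 0.99 (SE) on the log2 scale and an adjusted p of 0.922.

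The clusters also hold genes of other kinds. Inside their spans lie 46, of which 20 had a count and 2 were tested. None of the 7 microRNA genes there had a count in these libraries of polyadenylated RNA. The 4 with the highest mean level were Hoxd3os1, Hoxaas3, Hotair and Haglr, all non-coding. Hoxd3os1, an antisense transcript of the HoxD cluster, had 11.5 ± 4.36 CPM (SD, n = 5) in HSA-NRTN and 18.04 ± 11.2 CPM in wild-type mice. Hoxaas3, antisense in HoxA, had 7.68 ± 4.86 and 2.20 ± 2.20 CPM, with a log2 fold change of 1.78 ± 0.84 (SE) and an edgeR adjusted p of 0.999. Its exons overlap those of Hoxa7.

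Hotair, a long non-coding RNA transcribed antisense between Hoxc11 and Hoxc12 and best known for studies of gene silencing in HoxD, was counted in HSA-NRTN libraries alone. It had 67, 20, 6, 0 and 28 counts in HSA-NRTN replicates 1 to 5 and 0 in all 5 wild-type libraries. The pooled level was at least 42.7-fold higher in HSA-NRTN, taking 3 counts over the wild-type group as the limit. This limit covers counting error only and leaves out the variation between animals. HSA-NRTN replicate 1 held 67 of the 121 counts, and without it the pooled level was at least 22.5-fold higher (an alternative chosen after seeing the data). HSA-NRTN replicate 4, the library with the most gene counts (6641695), had 0 counts like the wild-type libraries, so the groups overlapped at 0. The gene had too few counts for the main test. With no filter edgeR gave it an adjusted p of 0.0180. That fit called 81 genes in all, beside 1 in the main fit, so this p is not a result of the main test. In CPM, HSA-NRTN replicates 1 and 2, the 2 males of that group, were highest for Hotair, Hoxc11 and Hoxd11 alike. Within that group they were also highest for Hoxd10, at 66.1 and 96.2 CPM. The lumbar segment of these libraries is not in the labels, and its part in the pattern was not tested. Haglr, at the other end of HoxD, had 54 of its 103 counts in wild-type replicate 5.

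The 5 lists that follow hold genes that act with or upstream of Hox proteins, depend on Hox input or mark motor columns. Each list gave 0 called differences by edgeR or DESeq2, and 0 at an unadjusted edgeR p under 0.05. Over all genes tested these shares were 0.0086%, 0.499% and 4.83%, so lists of 3 to 12 tested genes would hold few or no calls at the background rate. All 9 cofactors of the Pbx, Meis and Pknox families were counted in every library and tested, with 4 positive and 5 negative estimates. Among them Pbx3 had a mean of 37.5 CPM, Pknox2 of 21.0 and Meis2 of 21.0 CPM. The median log2 fold change of the list was -0.038.

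Polycomb genes, which encode the complexes that silence the clusters, were tested for 12 of 15, with 6 positive and 6 negative estimates. Ezh1 had a mean of 47.5 CPM, Suz12 of 27.8 and Phc2 of 26.4 CPM, while Ezh2, the other catalytic subunit, had 42 counts in 6 libraries. The 9 Trithorax-group and demethylase genes, whose products keep Hox genes active, gave 4 positive and 5 negative estimates. Men1 at 51.7 CPM, Rbbp5 at 47.7, Kmt2a at 41.2 and Ash2l at 35.3 CPM led that list.

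Of 8 embryonic inducers of Hox genes, Cdx1, Cdx2, Cdx4 and Fgf8 had no count in any library. Gdf11, a secreted factor that promotes caudal Hox genes, had 44.0 CPM, followed by Rarb at 3.93, Rara at 3.63 and Rarg at 0.808 CPM. Of 8 motor neuron genes that depend on Hox input or mark motor columns, 3 were tested and 0 called. Their estimates were 3 positive and 0 negative, while 48.6% of all genes tested were positive. The median log2 fold change of 0.83 was that of Runx1, with an SE of 1.11, and Foxp1 was at 0.21 ± 0.45 (SE). Foxp1, the Hox cofactor of limb-innervating motor neurons, had 50.6 ± 34.1 CPM (SD, n = 5) in HSA-NRTN and 43.7 ± 21.3 CPM in wild-type mice. Isl1 had 53.8 ± 30.3 and 27.5 ± 13.9 CPM, with a log2 fold change of 0.97 ± 0.46 (SE) and an edgeR adjusted p of 0.999. Runx1 had 4.21 CPM over all libraries, with 5.46 ± 7.55 CPM in HSA-NRTN and 2.96 ± 3.46 CPM in wild-type mice. Nkx6-1, with counts in 5 libraries and not tested, had 2.97 ± 3.27 CPM in HSA-NRTN and 0.057 ± 0.127 CPM in wild-type mice. Evx1 and Evx2, homeobox genes beside HoxA and HoxD, had 18 and 0 counts in all.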

How the data were processed

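Lumbar motor neuron pools of 10 mice, 5 per genotype, were sequenced by Smart-seq2 with Tn5, per the labels' protocols. Per the submitters' processing notes, the authors used STAR 2.5.0a, HTSeq and the GRCm38.p6 build, while neither annotation release nor strand setting is stated there. The deposited raw counts cover 51912 genes, and 92 spike-ins and 5 tally entries (57.6% to 86.5% of reads) stayed out. A deposited table of signal equals these counts divided by 1 size factor per library. In the authors' deposited comparison table stand log2 fold changes, a Wald statistic used as a score, and p-values, of which adjusted p-values alone are quoted.

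Of the Hox symbols, 28 came from the deposited tables and 11 from the GENCODE annotation, which also gave exon lengths. Genes were filtered with filterByExpr, scaled by TMM and tested with edgeR 4.0.16 in R 4.3.3 on all 10 libraries. The SE of an edgeR log2 fold change is not an output of that test. It was taken as the size of the log2 fold change divided by the square root of the F statistic, and is approximate. DESeq2 1.42.0, limma 3.58.1 (voom), other scalings, no filter, a sex term and omission of libraries were alternatives. The steps were tested on simulated data. The named members are those with at least 10 counts in at least 5 libraries by library, the rest by range, and the 4 highest of each other list, of which some are not reported here. Members and lists were chosen with earlier results of these data known. Libraries come from separate animals.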

Additional observations from a re-analysis of the deposited data

Results flagged for a closer look

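Of 40 gene and genotype groups of 5 libraries screened, 2 had a library far from the others, and chance flags about 1 in 20 groups. Hoxb7 in wild-type replicate 2 was at 29.7 CPM, with the other wild-type libraries at 0 to 6.74 CPM. Hoxc5 in HSA-NRTN replicate 3 was at 18.5 CPM, with the other HSA-NRTN libraries at 0 to 3.86 CPM.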

How the results depend on the processing

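No Hox gene was called for genotype, sex or their interaction under any alternative run, namely RLE scaling, DESeq2, limma voom, no filter or a stricter one, omission of each library and, for genotype, a sex term. DESeq2 gave no p-value to Hoxd10 and Hoxd11 for sex or to Hoxd10 for the interaction. The number of all genes called for genotype was 1, and became 58 with DESeq2, 3 with limma voom, 81 with no filter, 5 with sex as a covariate, and 0 to 13 when 1 library was left out, with 13 without HSA-NRTN replicate 3 and 0 without wild-type replicate 2. The causes were not tested. Members with a count numbered 33, and 17 with the stricter limit of 10 counts in 5 libraries, by construction.

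The log2 fold change of Hoxa5 turned negative with no filter (-0.0041), with wild-type replicate 1 and HSA-NRTN replicate 2 both left out (-0.39), and ranged from -0.21 to 0.40 when 1 library was left out. Hoxb7 turned negative without both those libraries (-0.048) and ranged from -0.13 to 1.78 when 1 library was left out. It was 2.55 with limma voom and 1.28 with sex as a covariate, beside 0.20 in the main fit. Hoxc6 turned negative with limma voom (-0.23), with sex as a covariate (-0.077) and without both those libraries (-0.038), and ranged from -0.38 to 0.53. The other 14 fitted Hox genes kept their sign under the alternatives run. Block means moved by less than 1 SD, but the SDs of the low blocks are as large as their means. In HSA-NRTN, paralogs 1 to 3 moved from 3.17 to 1.81 CPM without replicate 5, and paralogs 12 and 13 from 1.62 to 0 CPM without replicate 2. Depth limits the low members, since 3 counts correspond to 0.428 to 1.62 CPM. No paired analysis was possible because the labels give each animal its own number and no number is shared between the genotypes.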
